A study of Mus musculus with 24 samples.

Results

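Smooth muscle cells and pericytes are the contractile cells that wrap blood vessels, and they share genes for actin filaments, a myosin motor, its regulators and a few surface receptors. A set of 33 such genes was followed across mouse fat cell cultures. The genes were listed by name and found in the deposited table by matching Ensembl identifiers to symbols, and all 33 were among its 53465 genes.

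The cultures were adipocytes grown from stromal vascular fraction (SVF) cells, the non-adipocyte cells of fat, from epididymal (eWAT) or inguinal (iWAT) white fat. The aKO cultures came from mice with Senp2flox/flox and Adipoq Cre, and the Cont cultures from mice with Senp2flox/flox alone. Both carry the floxed Senp2 allele, so Cont is not a wild type. Senp2 encodes a protease that removes SUMO from proteins, and the adiponectin promoter drives Cre in adipocytes, so that cells of the culture that did not become adipocytes are expected to keep Senp2. Each culture received siC/EBPb, an siRNA against the adipogenic transcription factor C/EBPb, or siNS, a name not spelled out in the labels. Confluent cells were induced for 2 days with dexamethasone, isobutylmethylxanthine and insulin, and kept for a further 5 days with insulin. Depot, genotype and siRNA give 8 groups of 3 libraries of poly(A) RNA: aKO siC/EBPb, aKO siNS, Cont siC/EBPb and Cont siNS in each depot. The labels do not state whether the 3 libraries of a group are separate animals or separate wells. Each p-value therefore reflects spread between libraries, which cannot be assigned to animals or to wells. In the main fit this spread was estimated over the libraries of all 8 groups together. Libraries outside a contrast thus also enter its p-values.

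Contractile genes are switched on by serum response factor (SRF), which binds a short A/T-rich element, the CArG box, together with myocardin or the myocardin-related transcription factors (MRTF-A and MRTF-B). MRTFs sit in the cytoplasm bound to free actin monomers and enter the nucleus when actin polymerises, so stress fibres and focal adhesions feed back on the same genes. In fat, preadipocytes and fibroblasts carry stress fibres that are taken apart as the cells round up and fill with lipid, and activated fibroblasts can also make smooth muscle actin. Receptors and small regulators such as Pdgfrb, Cspg4, Notch3 and Rgs5 are used as pericyte markers. They are not exclusive to pericytes, so they do not by themselves separate pericytes from smooth muscle.

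Of the 24 libraries, 23 held between 8435494 and 15388744 counts on genes, with 16.8% to 27.6% of reads not aligned. Replicate 2 of iWAT aKO siNS held 603585 gene counts, with 93.3% not aligned, and it also stood apart in the members: Acta2 was at 398 CPM (counts scaled to a common library size, with TMM factors) there against 882 and 782 CPM in the other iWAT aKO siNS libraries. Replicate 1 of aKO siC/EBPb stood apart in both depots. Its 16 smooth muscle markers summed to 5684 CPM in eWAT, against 4198 and 4726 CPM in replicates 2 and 3, and to 6107 CPM in iWAT, against 4782 and 4781 CPM. Its 14 adipocyte markers summed to 818 CPM in eWAT, against 1526 and 1503 CPM, and to 927 CPM in iWAT, against 1706 and 1659 CPM. Comparisons in which these libraries decide a call say so. Over the 24 libraries together, Acta2 and Tagln held most of the counts of the smooth muscle markers.

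The targeted genes checked the siRNA label. Cebpb averaged 27.4 ± 6.49 CPM in eWAT aKO siC/EBPb and 151 ± 8.67 CPM in eWAT aKO siNS (SD, n = 3), and 50.4 ± 7.56 CPM in eWAT Cont siC/EBPb and 168 ± 12.5 CPM in eWAT Cont siNS. In iWAT it averaged 18.5 ± 5.43 and 115 ± 11.9 CPM in aKO siC/EBPb and aKO siNS, and 36.0 ± 2.02 and 125 ± 18.3 CPM in Cont siC/EBPb and Cont siNS. With siC/EBPb every aKO library held less Cebpb than every Cont library of its depot. Senp2 averaged between 47.6 and 54.5 CPM in all 8 groups. Its count can take in undeleted exons and RNA of cells in which Cre is silent, but neither was examined. Senp2 thus does not check the genotype label, and its deletion was not shown in these data.

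Levels set per kilobase of exon gave the order of the members within a group. In eWAT Cont siNS the highest were Acta2, smooth muscle alpha actin, at 408 ± 44.3 CPM per kb (SD, n = 3), Tagln, the actin-bundling protein transgelin, at 299 ± 12.3, and Flna, the crosslinker filamin A, at 212 ± 13.7. Myl9, the myosin regulatory light chain, was at 118 ± 8.16 CPM per kb, Cnn2 at 118 ± 4.85, Pdgfrb at 113 ± 10.9 and Actn1, alpha-actinin 1, at 104 ± 9.20, neighbours that did not differ beyond their spread. Myh11, the smooth muscle myosin heavy chain and the strictest marker of differentiated smooth muscle, was at 5.07 CPM per kb, Des, the muscle intermediate filament desmin, at 4.31 and Itga8, an integrin subunit of smooth muscle and related cells, at 0.996.

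Some late and defining markers were scarce and others were not. Of the 16 smooth muscle markers listed, 13 passed the filter on low counts. Over the 24 libraries Cnn1 had 31678 counts, Myh11 29048 and Lmod1 14953. Kcnmb1, a subunit of the smooth muscle potassium channel, had 39 counts in the 24 libraries together, Casq2, a calcium store protein, 33, Actc1, cardiac actin, 77 and Pln, the calcium pump regulator phospholamban, 1. These 4 did not pass the filter on low counts and were not tested. Myocd, which encodes myocardin, had 200 counts and Rgs5, listed here as a pericyte marker, 297. Of the 6 pericyte markers listed outside the set, Higd1b had 13 counts, Kcnj8 199 and Cox4i2 227, while Anpep had 66536, Ndufa4l2 21345 and Abcc9 3752. The skeletal muscle regulators Myod1, Myf5 and Pax7 had no count and Myog had 1. Actin, transgelin and calponin RNA was abundant, Rgs5 and Higd1b were near 0, and the pericyte list as a whole was mixed. In bulk RNA, fewer cells of a type and less RNA per cell cannot be told apart, and this holds for all comparisons that follow.

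Promoters were searched for the element that SRF binds. Windows of 250 bases before to 50 bases after the start were taken from RefSeq (GRCm38.p6) and were matched for 28 of the 33 members; Pdgfrb, Myh11, Myocd, Actg2 and Tagln were not analysed here. A CArG box (CC, then 6 bases that are A or T, then GG, which reads as a CArG box on either strand) was found in 6 of these 28 genes (21.4%), against 165 of 10730 tested genes with a window (1.54%). The 6 were Srf itself, Myl9, Cnn2, Vcl, Ldb3 and Actc1. Since many of the 33 genes are textbook SRF targets, this share describes the set and tests nothing. The boxes of Cnn2 and Vcl are letter for letter the same. For comparison, CATTCC, the core that TEAD factors bind, was in 10 of the 28 genes (35.7%) and in 14.7% of tested genes, and TTGCNNAA, a core of C/EBP sites, was in 1 of the 28 (3.57%, Actn1) and in 10.2% of tested genes, both strands searched. A match is a run of letters, not a bound site.

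The 250 bases before the start are shown for 4 of these genes because they carry this element, 5′ to 3′ on the coding strand, with CArG boxes in capitals. Srf is at chr17:46556163-46556412 on the minus strand with boxes 82 and 62 bases before the start, Myl9 at chr2:156775214-156775463 on the plus strand with a box 161 bases before it, Vcl at chr14:20929148-20929397 on the plus strand with a box at 227 and Cnn2 at chr10:79988350-79988599 on the plus strand with a box at 56.
Srf: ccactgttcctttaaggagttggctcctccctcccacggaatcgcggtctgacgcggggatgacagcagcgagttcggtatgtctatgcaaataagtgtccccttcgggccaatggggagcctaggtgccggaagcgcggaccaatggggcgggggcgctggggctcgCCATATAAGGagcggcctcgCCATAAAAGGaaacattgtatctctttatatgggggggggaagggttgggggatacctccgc
Myl9: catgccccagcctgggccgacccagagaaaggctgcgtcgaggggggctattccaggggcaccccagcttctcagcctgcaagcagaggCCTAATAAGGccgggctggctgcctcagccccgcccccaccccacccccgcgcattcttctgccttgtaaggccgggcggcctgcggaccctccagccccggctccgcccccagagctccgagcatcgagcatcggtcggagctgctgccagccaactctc
Vcl: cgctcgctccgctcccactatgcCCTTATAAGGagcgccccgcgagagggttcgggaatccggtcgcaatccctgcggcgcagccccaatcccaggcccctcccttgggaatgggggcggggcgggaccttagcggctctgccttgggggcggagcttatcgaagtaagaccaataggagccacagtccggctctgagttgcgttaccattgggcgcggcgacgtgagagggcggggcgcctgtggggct
Cnn2: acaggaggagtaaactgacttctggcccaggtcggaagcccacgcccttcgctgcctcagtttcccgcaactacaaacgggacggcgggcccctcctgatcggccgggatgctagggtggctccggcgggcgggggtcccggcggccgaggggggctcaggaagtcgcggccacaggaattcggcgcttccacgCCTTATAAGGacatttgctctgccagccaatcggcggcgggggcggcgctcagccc

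The first comparison asked how loss of C/EBPb changed the members within aKO cultures. Contractile genes were higher with siC/EBPb, through actins, myosin, calponins, tropomyosins and adhesion proteins alike, while of 5 pericyte genes in the set (Pdgfrb, Cspg4, Notch3, Mcam and Rgs5) only Pdgfrb rose, in eWAT. In eWAT aKO, 24 of the 29 tested members rose and 0 fell, where 35.7% of all tested genes changed in either direction and 16.6% rose (edgeR quasi-likelihood test, QL, adjusted p under 0.05). In iWAT aKO, 22 rose and 1 fell, where 31.3% of all genes changed, 13.6% rose and 17.7% fell. The median log2 fold change of the tested members was 1.11 in eWAT and 1.21 in iWAT, against -0.0011 and -0.0062 over all tested genes. All libraries with siC/EBPb lay above all with siNS for 25 members in eWAT, where 46.3% of all genes separated in either direction (22.5% above), and for 21 in iWAT, where 35.1% did (18.5% above). The 33 members together summed to 14683 ± 1739 CPM in eWAT aKO siC/EBPb and 6718 ± 233 CPM in eWAT aKO siNS (SD, n = 3), and to 15292 ± 1939 and 6975 ± 239 CPM in the same groups of iWAT.

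**Figure D1:**
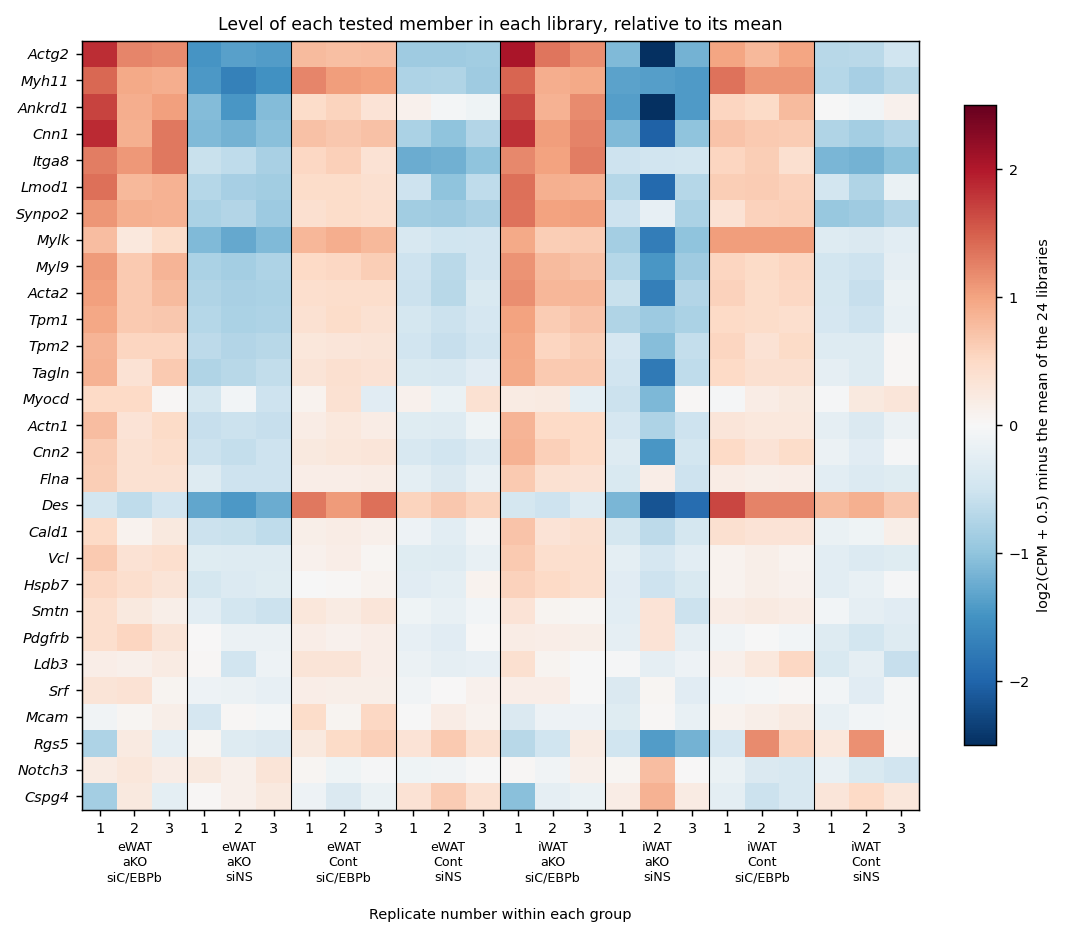
Each row is one of the 29 tested members, and each column is a library, grouped by depot, genotype and siRNA. Colour is log2(CPM + 0.5) minus the gene's mean over the 24 libraries, red for higher and blue for lower, and it saturates at the ends of the scale. The aKO siC/EBPb columns are red for most contractile genes and the aKO siNS columns blue, Des is red in Cont columns and blue in aKO columns, and replicate 2 of iWAT aKO siNS differs from its neighbours.

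Among the filament proteins, Acta2 (ENSMUSG00000035783; GRCm38 chromosome 19, 34241090 to 34255590, minus strand) was at 2636, 2038 and 2246 CPM in eWAT aKO siC/EBPb, against 772, 744 and 752 CPM in eWAT aKO siNS. In iWAT it was at 2896, 2304 and 2296 CPM in aKO siC/EBPb, against 882, 398 and 782 CPM in aKO siNS. All libraries with siC/EBPb lay above all with siNS, by a log2 fold change of 1.61 ± 0.17 in eWAT and 1.82 ± 0.17 in iWAT (SE; edgeR QL adjusted p = 3.96e-08 and 1.05e-08). Actg2, the enteric smooth muscle actin, was at 166, 106 and 104 CPM in eWAT aKO siC/EBPb, against 16.2, 17.4 and 17.0 CPM in eWAT aKO siNS. Its groups lay far apart in eWAT, and replicate 1 was the highest of the treated libraries, as in iWAT. Its log2 fold change was 2.89 ± 0.21 in eWAT and 2.77 ± 0.24 in iWAT. The actins are near-identical in their coding sequence, so reads may have been split between Acta2, Actg2, Actc1 and Acta1 by the aligner, and their single values are uncertain to that extent.

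Myh11 was at 184, 131 and 128 CPM in eWAT aKO siC/EBPb, against 24.8, 20.7 and 23.5 CPM in eWAT aKO siNS. The iWAT levels were 186, 128 and 132 CPM in aKO siC/EBPb, against 26.6, 25.7 and 25.3 CPM in aKO siNS. Here the shallow library sat with its group, and the depots gave nearly the same levels. The log2 fold change was 2.69 ± 0.15 in eWAT and 2.52 ± 0.17 in iWAT (edgeR QL adjusted p = 3.01e-12 and 1.04e-10). Myl9 rose by 1.67 ± 0.11 and 1.76 ± 0.12, and Mylk, the kinase that activates myosin by phosphorylating this light chain, by 1.69 ± 0.11 and 1.73 ± 0.12.

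Proteins that bind and steady the thin filament followed. Cnn1, calponin 1, a smooth muscle protein that slows the actin-myosin cycle, was at 273, 138 and 185 CPM in eWAT aKO siC/EBPb, against 34.3, 32.5 and 35.9 CPM in eWAT aKO siNS, and rose by 2.54 ± 0.21 in eWAT and 2.51 ± 0.24 in iWAT. Tagln was at 1382, 983 and 1191 CPM in eWAT aKO siC/EBPb, against 451, 473 and 495 CPM in eWAT aKO siNS, and rose by 1.33 ± 0.17 and 1.54 ± 0.18. The groups of both genes were separate in both depots. The tropomyosins Tpm1 and Tpm2, which lie along actin and govern access of myosin, rose by 1.53 ± 0.10 and 1.35 ± 0.12 in eWAT and by 1.60 ± 0.11 and 1.33 ± 0.12 in iWAT. Lmod1, leiomodin, which nucleates actin filaments in smooth muscle, rose by 1.87 ± 0.17 and 1.82 ± 0.19, and Synpo2, an actin-bundling protein, by 1.79 ± 0.10 and 1.78 ± 0.11. Smaller rises were found for Cnn2, the calponin found widely outside muscle (1.04 ± 0.13 and 1.22 ± 0.14), Cald1, caldesmon, which restrains myosin on actin (0.87 ± 0.11 and 0.98 ± 0.11), and Smtn, smoothelin (0.70 ± 0.10 and 0.49 ± 0.11). The iWAT libraries of Smtn overlapped between groups, and its value there was 0.32 when aKO siNS replicate 3 was left out (edgeR QL adjusted p = 0.0707). Exons of Tagln overlap those of Pcsk7 on the other strand, and no source used here gives the strand setting of the counting.

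Adhesion and anchoring proteins also rose, by log2 fold changes between 0.69 (Flna in iWAT) and 1.95 (Itga8 in eWAT). Vcl, vinculin, which ties actin to focal adhesions, was at 917, 745 and 782 CPM in eWAT aKO siC/EBPb, against 474, 464 and 467 CPM in eWAT aKO siNS, a log2 fold change of 0.80 ± 0.09, with 0.79 ± 0.09 in iWAT. Its exons overlap those of Ap3m1 on the other strand. Actn1 rose by 1.11 ± 0.11 and 1.16 ± 0.11 and Flna by 0.91 ± 0.13 and 0.69 ± 0.13. Itga8 was at 41.2, 36.3 and 42.7 CPM in eWAT aKO siC/EBPb, against 11.3, 10.6 and 9.33 CPM in eWAT aKO siNS, and its 1.95 ± 0.10 in eWAT had the smallest adjusted p of the members (edgeR QL, 1.06e-14), with 1.69 ± 0.11 in iWAT. Its libraries within each group lay close together and replicate 1 did not stand out. Des rose by 0.88 ± 0.17 and 1.20 ± 0.21, at low levels described below.

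Among regulators, Ankrd1 and Srf rose in both depots and Myocd was called in eWAT. Ankrd1, a nuclear cofactor and muscle spring protein that responds to stretch and to YAP and SRF, was at 26.6, 15.4 and 16.7 CPM in eWAT aKO siC/EBPb, against 3.46, 2.57 and 3.50 CPM in eWAT aKO siNS, and rose by 2.63 ± 0.23 (edgeR QL adjusted p = 2.92e-09). In iWAT it was at 26.1, 14.9 and 18.6 CPM in aKO siC/EBPb, against 2.75, 0 and 2.66 CPM in aKO siNS, where the 0 is the shallow library, and rose by 2.90 ± 0.28. Srf rose by 0.42 ± 0.08 in eWAT and 0.41 ± 0.09 in iWAT, where 1 library with siNS lay within the range of siC/EBPb. Myocd stayed between 0.259 and 1.05 CPM in eWAT aKO and was called there at 1.26 ± 0.40 (edgeR QL adjusted p = 0.0152), with an adjusted p of 0.0531 to 0.0845 without any of 4 libraries, namely siNS replicate 1 or 3 or siC/EBPb replicate 1 or 2. In iWAT it was 0.60 ± 0.49 and not called. The muscle chaperone Hspb7 rose by 0.79 ± 0.08 and 0.85 ± 0.09. Ldb3, a Z-disc protein of striated muscle at 1.56 to 3.29 CPM in aKO, was not called (0.43 ± 0.19 and 0.30 ± 0.22).

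Pericyte genes gave mixed results. Pdgfrb, the receptor for platelet-derived growth factor that mural cells and fibroblasts carry, was at 923, 999.9 and 862 CPM in eWAT aKO siC/EBPb, against 691, 623 and 625 CPM in eWAT aKO siNS, and rose by 0.52 ± 0.11. In iWAT it was 0.21 ± 0.11 and not called (edgeR QL adjusted p = 0.16). Cspg4, the NG2 proteoglycan, was at 3.83, 7.12 and 7.41 CPM in iWAT aKO siC/EBPb, against 9.64, 15.8 and 9.73 CPM in iWAT aKO siNS. It fell by 0.69 ± 0.23 on the log2 scale in iWAT, but by 0.45 without siC/EBPb replicate 1 (adjusted p = 0.148), and the call was also lost without siNS replicate 1 or 3. In eWAT it was -0.39 ± 0.20 and not called. Notch3, a receptor that maintains vascular smooth muscle, was at 38.7, 40.8 and 38.0 CPM in eWAT aKO siC/EBPb, against 39.8, 36.7 and 42.0 CPM in eWAT aKO siNS, with overlapping groups (-0.01 ± 0.09). Mcam, an adhesion receptor of vessel walls, was 0.17 ± 0.12 in eWAT and 0.03 ± 0.14 in iWAT, and Rgs5, at or below 1.03 CPM in every aKO library, was not called in either depot.

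**Figure D2:**
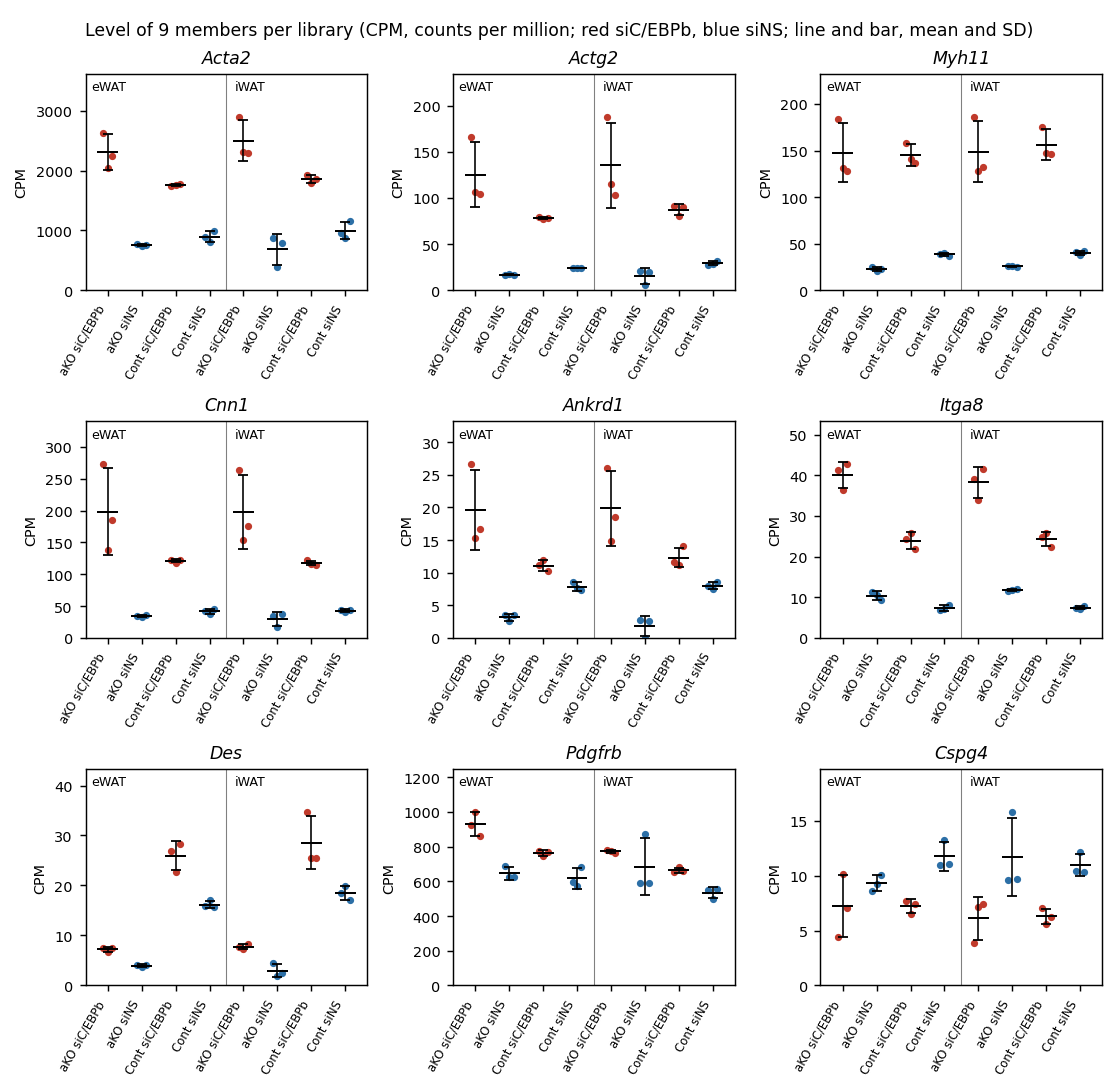
CPM of 9 members in each library (points), with the mean (line) and SD (bar) of the 3 libraries of a group, eWAT left and iWAT right of the grey line in each panel. Acta2, Actg2, Cnn1 and Ankrd1 have their highest mean in aKO siC/EBPb and their lowest in aKO siNS, Myh11 is about as high in both genotypes with siC/EBPb, Itga8 is lowest in Cont siNS, Des separates aKO from Cont, and Pdgfrb and Cspg4 differ less between groups.

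In Cont cultures the same treatment moved most members the same way, with a smaller median step. Not every member had the smaller step in Cont. In eWAT Cont, 21 of 29 rose and 1 fell, where 26.8% of all tested genes changed, 11.8% rose and 14.9% fell. In iWAT Cont, 23 rose and 1 fell, where 24.3% changed, 10.3% rose and 14.0% fell. The median log2 fold change was 0.55 in eWAT and 0.60 in iWAT, against 0.02 and 0.0041 over all tested genes. The libraries with siC/EBPb lay wholly above those with siNS for 23 members in eWAT and 24 in iWAT, where 45.9% and 42.8% of all genes separated in either direction (23.0% and 21.1% above). The member that fell in both depots was Cspg4, by 0.71 ± 0.19 and 0.81 ± 0.22 on the log2 scale (edgeR QL adjusted p = 0.00732 and 0.00734). All 33 members summed to 11976 ± 95.6 CPM in eWAT Cont siC/EBPb and 7859.9 ± 503 CPM in eWAT Cont siNS, and to 12439 ± 251 and 8159 ± 607 CPM in iWAT (SD, n = 3).

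Myh11 was at 158, 141 and 137 CPM in eWAT Cont siC/EBPb, against 39.3, 39.9 and 36.4 CPM in eWAT Cont siNS, the largest log2 fold change of a member in Cont (1.91 ± 0.14 in eWAT, 1.95 ± 0.14 in iWAT; edgeR QL adjusted p = 5.41e-10 and 8.15e-10). Itga8 was at 24.3, 25.7 and 21.8 CPM in eWAT Cont siC/EBPb, against 6.84, 7.06 and 8.12 CPM in eWAT Cont siNS, and rose by 1.71 ± 0.11 and 1.71 ± 0.12. Acta2 was at 1738, 1764 and 1769 CPM in eWAT Cont siC/EBPb, against 896, 800.1 and 995 CPM in eWAT Cont siNS, and rose by 0.97 ± 0.17 and 0.90 ± 0.17. The groups of these genes did not overlap in either depot. Actg2 rose by 1.67 ± 0.20 and 1.57 ± 0.21, Cnn1 by 1.55 ± 0.20 and 1.45 ± 0.21, Synpo2 by 1.30 ± 0.10 and 1.40 ± 0.10, and Mylk by 1.30 ± 0.11 and 1.36 ± 0.11. Ankrd1 was at 11.1, 12.0 and 10.2 CPM in eWAT Cont siC/EBPb, against 8.62, 7.67 and 7.33 CPM in eWAT Cont siNS, which was not called (0.49 ± 0.21, adjusted p = 0.0829). The iWAT value was called at 0.63 ± 0.22, but not when any one of the 6 iWAT Cont libraries was left out (adjusted p 0.0574 to 0.170). Srf was not called in either depot (0.14 ± 0.08 and 0.09 ± 0.08), nor were Myocd, Notch3, Mcam and Rgs5. Pdgfrb rose by 0.31 in both depots, and this call was lost without 5 of the 6 libraries of the contrast in each depot (all but Cont siNS replicate 3). The call of Cald1 in eWAT (0.31 ± 0.11) and of Ldb3 in eWAT (0.55 ± 0.18) was also lost without 5 of the 6 libraries.

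**Figure D3:**
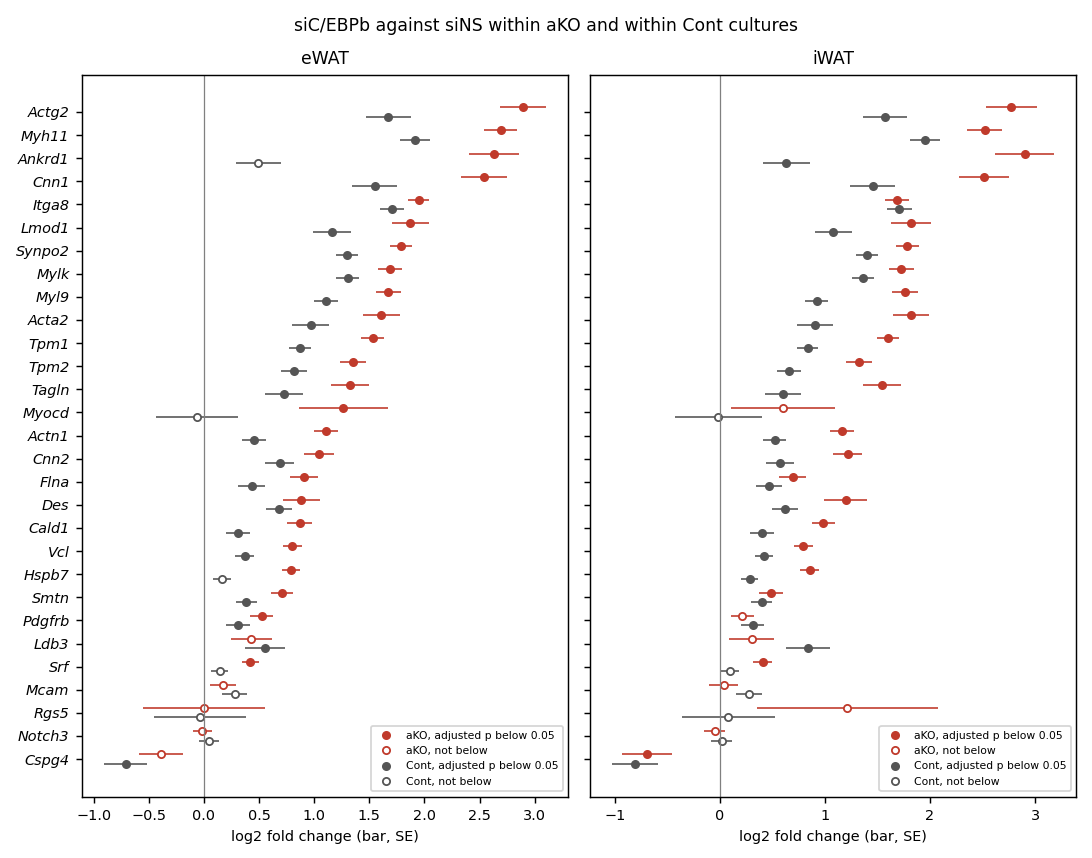
log2 fold change of siC/EBPb against siNS for each tested member (rows), with its SE as a bar, in eWAT (left) and iWAT (right). Red points are aKO and grey points Cont, filled where the edgeR QL adjusted p was under 0.05. Red lies right of grey for most contractile genes, with the widest gap at Ankrd1, while Itga8, Mcam and Notch3 lie close together and Cspg4 lies left of 0 in both genotypes.

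Genotype was then compared within each siRNA. With siC/EBPb, several contractile genes were higher in aKO than in Cont cultures. In eWAT 9 members rose and 2 fell, where 10.8% of all tested genes changed, 3.90% rose and 6.87% fell; in iWAT 11 rose and 1 fell, where 10.0% changed, 3.52% rose and 6.51% fell. The medians were 0.29 and 0.31, against -0.0020 and -0.0016 over all tested genes. The aKO libraries lay wholly above the Cont libraries for 17 members in each depot and below for 3, where 28.9% of all genes separated in eWAT (13.5% above, 15.5% below) and 31.6% in iWAT (15.1% above, 16.5% below). The 8 that rose in both depots were Actg2, Ankrd1, Cnn1, Hspb7, Itga8, Synpo2, Tpm1 and Vcl. Synpo2 was at 108, 92.7 and 91.7 CPM in eWAT aKO siC/EBPb, against 65.9, 69.0 and 66.9 CPM in eWAT Cont siC/EBPb, and rose by 0.54 ± 0.09 and 0.62 ± 0.09 (edgeR QL adjusted p = 0.000151 and 2.77e-05). Itga8 rose by 0.74 ± 0.09 and 0.65 ± 0.09, Hspb7 by 0.40 ± 0.08 and 0.39 ± 0.08 and Vcl by 0.38 ± 0.09 and 0.39 ± 0.09. The libraries of these 4 genes did not overlap, and their calls were kept whichever library was left out.

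Other rises of aKO with siC/EBPb lost their call or shrank without replicate 1 of aKO siC/EBPb, the library with the highest contractile levels. Without it Actg2 was 0.43 in eWAT (0.69 with it) and 0.32 in iWAT (0.64), and Cnn1 was 0.41 in eWAT (0.71) and 0.49 in iWAT (0.75), none of them called (edgeR QL adjusted p = 0.141, 0.226, 0.144 and 0.118). Likewise Lmod1 in eWAT was 0.40 (0.61 with it), and in iWAT Ankrd1 was 0.43 (0.68), Tpm1 0.22 (0.34), Myl9 0.24 (0.37) and Actn1 0.22 (0.35), and none was called. The eWAT call of Tpm1 (0.37 ± 0.10) was lost without this library or Cont siC/EBPb replicate 1 or 3. Mylk went the other way in eWAT, falling by 0.33 ± 0.10 on the log2 scale in aKO, and its call was lost without any of the Cont siC/EBPb replicates or aKO siC/EBPb replicate 2 or 3. The calls of Actg2 in both depots and Cnn1 in eWAT were also lost without any one of the 3 Cont siC/EBPb replicates. So were those of Tpm1, Myl9 and Actn1 in iWAT. Cnn1 in iWAT was also lost without Cont siC/EBPb replicate 2 or 3, and Ankrd1 in iWAT without replicate 1 or 2. Lmod1 in eWAT was also lost without Cont siC/EBPb replicate 3. Without aKO siC/EBPb replicate 1, Ankrd1 in eWAT stayed called at 0.53 (0.82 with it, edgeR QL adjusted p = 0.0451). Without aKO siC/EBPb replicate 1, the number of members called was 7 in eWAT and 6 in iWAT. In eWAT it was 7 without Cont siC/EBPb replicate 1 and 6 without replicate 3. In iWAT it was 5 without Cont siC/EBPb replicate 2 and 6 without replicate 3. Without the shallow iWAT aKO siNS replicate 2 it was 19 in eWAT and 18 in iWAT. The share of all tested genes called in fits without a library is not given here or below.

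With siNS the direction was the other one for most members. In eWAT 2 members rose and 8 fell in aKO, where 20.4% of all tested genes changed, 9.50% rose and 10.9% fell; in iWAT 2 rose and 11 fell, where 15.2% changed, 7.32% rose and 7.85% fell. The medians were -0.25 and -0.31, against 0.0036 and -0.00087 over all tested genes. The aKO libraries lay wholly below the Cont libraries for 19 members in eWAT and 15 in iWAT, and above for 2 and 3, where 39.3% and 25.8% of all genes separated (20.1% and 14.2% below, 19.3% and 11.6% above). Des, Ankrd1, Myh11, Mylk, Cald1 and Tpm1 fell in both depots, and Itga8 and Notch3 rose in both. Mylk was at 66.9, 58.9 and 67.0 CPM in eWAT aKO siNS, against 110.0, 102 and 104 CPM in eWAT Cont siNS, and fell by 0.71 ± 0.11 in eWAT and by 0.67 ± 0.12 in iWAT on the log2 scale. Ankrd1 fell by 1.31 ± 0.26 and 1.59 ± 0.32, and Myh11 by 0.75 ± 0.15 and 0.64 ± 0.17. Myh11 in iWAT was not called without aKO siNS replicate 1 or 3. Cald1 fell by 0.42 ± 0.11 and 0.45 ± 0.11. Tpm1 fell by 0.29 ± 0.10 and 0.43 ± 0.11, and its eWAT call was lost without any one of the 6 libraries of the contrast.

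Calls in a single depot were Actn1 (-0.32 ± 0.11) and Smtn (-0.30 ± 0.10) in eWAT, and Tagln, Myl9, Cnn2, Tpm2 and Rgs5 in iWAT. Tagln was -0.61 ± 0.18 in iWAT and -0.39 without the shallow library, and Cnn2 was -0.41 ± 0.14 and -0.26, both still called. Tagln was not called without Cont siNS replicate 3, Cnn2 not without Cont siNS replicate 1 or 3 or aKO siNS replicate 3, and Tpm2 (-0.40 ± 0.12) not without aKO siNS replicate 2 or 3 or Cont siNS replicate 3. The eWAT calls of Actn1 and Smtn were lost without Cont siNS replicate 1 or 3 or aKO siNS replicate 2 or 3, and that of Actn1 also without aKO siNS replicate 1. Rgs5 was at 0.430, 0 and 0.0761 CPM in iWAT aKO siNS, against 1.07, 2.38 and 0.842 CPM in iWAT Cont siNS. Those levels rest on a handful of counts, and the log2 fold change of -2.55 ± 0.74 was -4.13 without aKO siNS replicate 1 and not called without aKO siNS replicate 3 or Cont siNS replicate 2. Acta2 (-0.25 ± 0.17 and -0.49 ± 0.17, edgeR QL adjusted p = 0.34 and 0.0528; in iWAT -0.26 without the shallow library and was called without aKO siNS replicate 1, at -0.70, or Cont siNS replicate 2, at -0.59) and Cnn1 (-0.28 ± 0.22 and -0.31 ± 0.25) were not called in either depot. In eWAT the number of members called was 6 without aKO siNS replicate 3.

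Des and Itga8 kept their direction under both siRNAs. Des was at 7.53, 6.65 and 7.47 CPM in eWAT aKO siC/EBPb, against 26.9, 22.8 and 28.2 CPM in eWAT Cont siC/EBPb, and at 4.00, 3.59 and 4.15 CPM in eWAT aKO siNS, against 15.8, 17.1 and 15.7 CPM in eWAT Cont siNS. No aKO library reached a Cont library. Des fell by 1.84 ± 0.13 and 1.88 ± 0.13 with siC/EBPb in eWAT and iWAT, and by 2.05 ± 0.15 and 2.46 ± 0.19 with siNS (edgeR QL adjusted p = 1.54e-10, 2.59e-10, 1.64e-10 and 3.16e-10). A list of 9 mesothelial markers was also lower in aKO with siNS. It summed to 6.09 to 8.03 CPM in eWAT aKO siNS and 25.3 to 26.3 CPM in eWAT Cont siNS. In each depot 0 of the 6 tested rose and 3 fell. Of all tested genes 10.9% fell in this contrast in eWAT and 7.85% in iWAT. A list of 10 endothelial markers summed to 36.9 to 43.8 CPM in eWAT aKO siNS and 55.4 to 57.3 CPM in eWAT Cont siNS. In iWAT the mesothelial sums were 3.96 to 7.92 CPM in aKO siNS and 27.8 to 29.0 CPM in Cont siNS. The endothelial sums there were 37.7 to 65.3 CPM and 51.6 to 57.9 CPM, and they overlapped only through the shallow library. That library gave the 3.96 and the 65.3 CPM. Replicates 1 and 3 of iWAT aKO siNS had endothelial sums of 39.7 and 37.7 CPM, below every iWAT Cont siNS library. With siNS, 6 of the 9 tested endothelial markers were called lower in aKO in eWAT and 4 in iWAT. Another 1 was called higher in each depot. In the same contrast 0 of 9 tested leukocyte markers rose, and 6 fell in eWAT and 4 in iWAT. The part of any of these cell types in the Des result was not tested. Itga8 rose by 0.50 ± 0.12 and 0.67 ± 0.14 with siNS. Notch3 rose by 0.31 ± 0.09 and 0.41 ± 0.11 with siNS, the eWAT call being lost without eWAT aKO siNS replicate 3, and with siC/EBPb it was called in iWAT only (0.34 ± 0.09), where it was lost without aKO siC/EBPb replicate 1 or 3 or Cont siC/EBPb replicate 2 or 3.

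**Figure D4:**
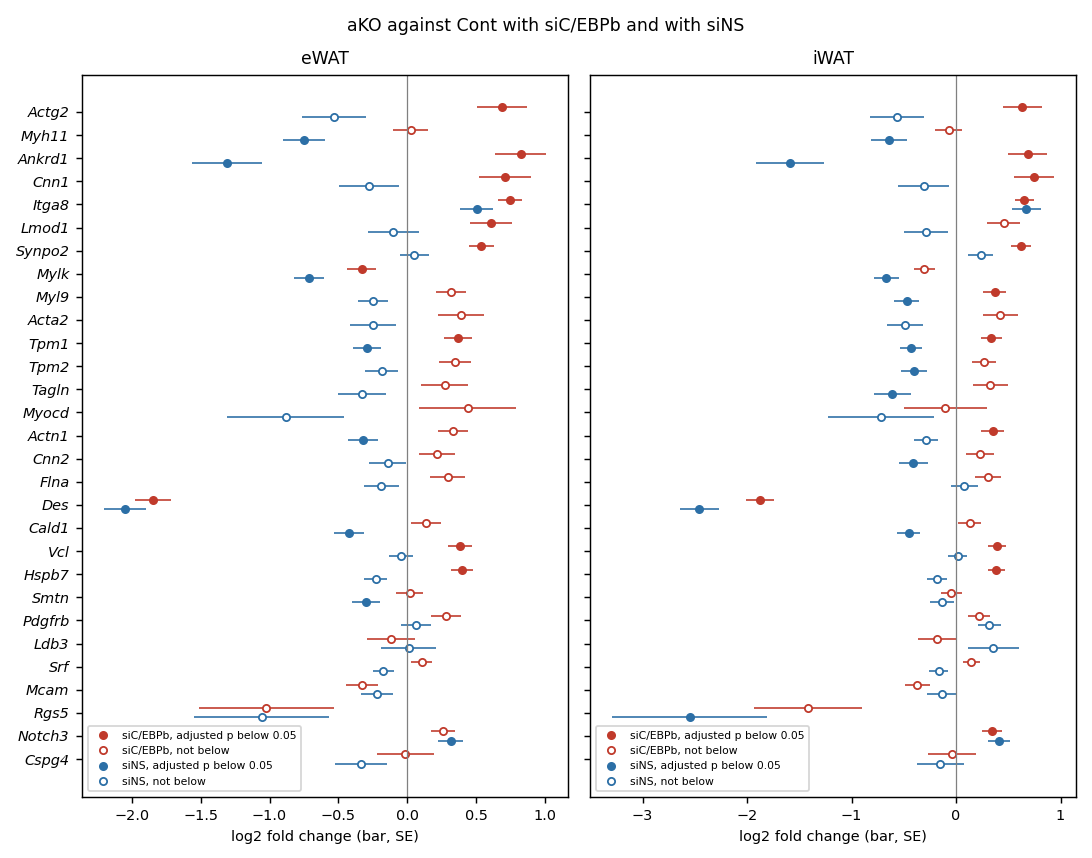
log2 fold change of aKO against Cont for each tested member (rows), with its SE as a bar, in eWAT (left) and iWAT (right). Red points are cultures with siC/EBPb and blue points those with siNS, filled where the edgeR QL adjusted p was under 0.05. Red lies right of blue for most contractile genes, often on the other side of 0, while Des lies near -2 under both and Itga8 right of 0 under both.

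Whether the effect of siC/EBPb differed between the genotypes was tested by the interaction term, the log2 fold change in aKO minus that in Cont. It was positive and called for 11 members in eWAT (6.34% of all tested genes were called, 3.01% positive) and for 10 in iWAT (3.51% called, 1.32% positive), and negative and called for 0 in either depot. The medians were 0.49 and 0.58, against -0.02 over all tested genes in each depot. Called in both depots were Ankrd1 (2.13 in eWAT, 2.27 in iWAT), Actg2 (1.22 and 1.20), Tpm1 (0.66 and 0.77), Actn1 (0.65 and 0.64), Hspb7 (0.62 and 0.57), Myl9 (0.57 and 0.84) and Cald1 (0.56 and 0.58). Called in eWAT alone were Cnn1, Myh11, Synpo2 and Vcl, and in iWAT alone Tagln, Acta2 and Tpm2. Itga8 (0.24 ± 0.15 and -0.02 ± 0.16) and Mylk (0.38 ± 0.15 and 0.36 ± 0.16) were not called, although siC/EBPb raised both in each genotype. Ankrd1 and Tpm1 kept the call in both depots whichever library was left out, as did Hspb7 and Actg2 in eWAT and Myl9 in iWAT.

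The other interaction calls depended on single libraries. In eWAT the number called was 4 without aKO siC/EBPb replicate 1, 5 without Cont siNS replicate 1, and 6 without Cont siNS replicate 3, Cont siC/EBPb replicate 1 or 3, or aKO siNS replicate 2 or 3. In iWAT it was 4 without Cont siNS replicate 3, 5 without aKO siC/EBPb replicate 1 or Cont siC/EBPb replicate 2 or 3, and 6 without Cont siC/EBPb replicate 1. Cnn1 in eWAT (0.99 ± 0.29, edgeR QL adjusted p = 0.049) lost its call in 12 of 13 such fits. With siC/EBPb, Cebpb was lower in every aKO library than in every Cont library of its depot, as given above, and the part of this in the interaction was not tested.

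Depots were compared with siNS only. Few genes of any kind were called between them, and the members' counts were near those of all genes. The aKO comparison holds the shallow library, and the absence of a call does not show equal levels. Between iWAT and eWAT, 0 members were called in Cont siNS (1.20% of all tested genes) and 0 in aKO siNS (0.352%) by edgeR QL, with an unadjusted p under 0.05 for 2 and 0 members and 0 called by the DESeq2 Wald test in both. The median log2 fold changes were 0.05 and 0.03, against -0.01 and -0.0088 over all tested genes. Without the shallow library 3 members were called in Cont siNS. In Cont siNS the iWAT libraries lay wholly above the eWAT libraries for 4 members and below for 3, where 26.0% of all genes separated (12.0% above, 13.9% below), and in aKO siNS for 2 and 1, where 11.9% did. Same-numbered eWAT and iWAT libraries deviated together in most pairs, so the depots may not be independent repeats of each other. For the difference between depots of the genotype effect with siNS and of the siC/EBPb effect in Cont, 0 members and 0.00% of all genes were called by edgeR QL, with 0 members at an unadjusted p under 0.05 and 0 by DESeq2.

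Other genes of the pathway were taken from lists beside the members. With siC/EBPb against siNS, 16.6% of all tested genes rose and 19.1% fell in eWAT aKO, 13.6% and 17.7% in iWAT aKO, 11.8% and 14.9% in eWAT Cont and 10.3% and 14.0% in iWAT Cont, and the counts below are to be read against these shares. Of 18 further SRF and MRTF targets, 15 rose and 2 fell with siC/EBPb in eWAT aKO (median 0.73) and 13 rose and 2 fell in iWAT aKO (0.61), against 10 and 3 in eWAT Cont (0.35) and 11 and 2 in iWAT Cont (0.37). Ccn2, a matricellular target of YAP and SRF, averaged 1112 CPM in eWAT aKO siC/EBPb and 308 CPM in eWAT aKO siNS, and rose by 1.85 ± 0.14, against 0.62 ± 0.13 in eWAT Cont. Thbs1, thrombospondin 1, rose by 1.76 ± 0.11 in eWAT aKO and 0.92 ± 0.11 in eWAT Cont, and Csrp2, a LIM protein of smooth muscle, by 1.00 ± 0.10 and 1.02 ± 0.10. Fos, an immediate early SRF target of the growth factor branch, fell by 1.65 ± 0.14 and 1.44 ± 0.14.

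Of 15 tested regulators of SRF, MRTF, YAP and TEAD, 7 rose and 0 fell in eWAT aKO, 5 and 0 in iWAT aKO, and 5 and 1 in each Cont depot, with medians between 0.03 and 0.16, where 35.7%, 31.3%, 26.8% and 24.3% of all genes changed in eWAT aKO, iWAT aKO, eWAT Cont and iWAT Cont. Fhl2, an SRF cofactor and target, averaged 185 CPM in eWAT aKO siC/EBPb and 75.4 CPM in eWAT aKO siNS, and rose by 1.29 ± 0.08, with 1.16 ± 0.08 in eWAT Cont. Tead1 rose by 0.79 ± 0.08 and 0.37 ± 0.08, and Yap1 by 0.44 ± 0.08 and 0.23 ± 0.08. The coactivator genes Mrtfa (0.10 ± 0.10 in eWAT aKO) and Mrtfb (0.02 ± 0.09), named after their values were seen, were not called. Of 22 genes of non-muscle actomyosin and adhesion, 16 rose and 2 fell in eWAT aKO and 16 and 3 in iWAT aKO, against 7 and 1 in eWAT Cont and 5 and 2 in iWAT Cont. Myh10, a non-muscle myosin heavy chain, rose by 1.34 ± 0.09 in eWAT aKO and 1.04 ± 0.09 in eWAT Cont, and Itga5, the fibronectin receptor subunit, by 1.11 ± 0.14 in eWAT aKO, with 0.10 ± 0.13 and no call in eWAT Cont.

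Markers of other cell types moved beside the members, and their part in the results was not tested. Pericyte markers outside the set went down: 5 of 5 tested fell with siC/EBPb in eWAT aKO and 4 in iWAT aKO, and 3 in each Cont depot. Ndufa4l2, a mitochondrial protein of pericytes, averaged 14.0 CPM in eWAT aKO siC/EBPb and 84.3 CPM in eWAT aKO siNS, and fell by 2.60 ± 0.26, and Abcc9, a potassium channel subunit, by 1.78 ± 0.16. The 11 pericyte markers together, most of whose level is Pdgfrb, summed to 947 to 1392 CPM over all libraries. The 1392 CPM is the shallow iWAT aKO siNS replicate 2, and the other libraries reached at most 1267 CPM. Of 32 striated muscle genes, 8 could be tested; 1 rose and 1 fell in eWAT aKO, 1 rose and 2 fell in iWAT aKO, and 1 rose in eWAT Cont. The one that rose, Acta1, skeletal actin, shares sequence with Acta2. The sum of the 32 was 29.7 to 35.2 CPM in eWAT aKO siC/EBPb and 16.9 to 19.8 CPM in eWAT aKO siNS. In the same groups of iWAT it was 30.1 to 40.2 CPM and 7.91 to 20.2 CPM. The 7.91 CPM is the shallow library, and replicates 1 and 3 of its group were at 20.2 and 17.0 CPM.

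Of 14 adipocyte markers, 12 fell with siC/EBPb in eWAT aKO, 11 in iWAT aKO and 5 in each Cont depot, and 0 rose. Their sum was 818 to 1526 CPM in eWAT aKO siC/EBPb and 3159 to 3586 CPM in eWAT aKO siNS, and 1199.6 to 1630 CPM in eWAT Cont siC/EBPb and 2191 to 2858 CPM in eWAT Cont siNS. In aKO against Cont with siNS, 7 adipocyte markers rose in eWAT and 3 in iWAT, and 0 fell. Of all tested genes 9.50% rose in that contrast in eWAT and 7.32% in iWAT. Of 9 tested leukocyte markers all 9 fell in each of the 4 contrasts of siRNA, with sums of 86.3 to 185 CPM in eWAT aKO siC/EBPb and 1459 to 1527 CPM in eWAT aKO siNS. All 9 also fell in aKO against Cont with siC/EBPb in both depots, where 6.87% of all tested genes fell in eWAT and 6.51% in iWAT. Of 12 fibroblast and progenitor markers, 1 rose and 7 fell in eWAT aKO and 1 and 8 in iWAT aKO. Of 4 tested Schwann cell markers 3 fell in each aKO depot, and of 6 tested mesothelial markers 0 changed there. In Cont, 3 of the 6 mesothelial markers rose with siC/EBPb in each depot, beside the members, and 1 fell in eWAT and 2 in iWAT (medians 1.18 and 1.04). In aKO against Cont with siC/EBPb, 5 of the 6 fell in eWAT and 4 in iWAT, against 6.87% and 6.51% of all tested genes. Of 9 tested endothelial markers, 1 rose and 2 fell in each aKO depot, near the share of all genes changed.

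**Figure D5:**
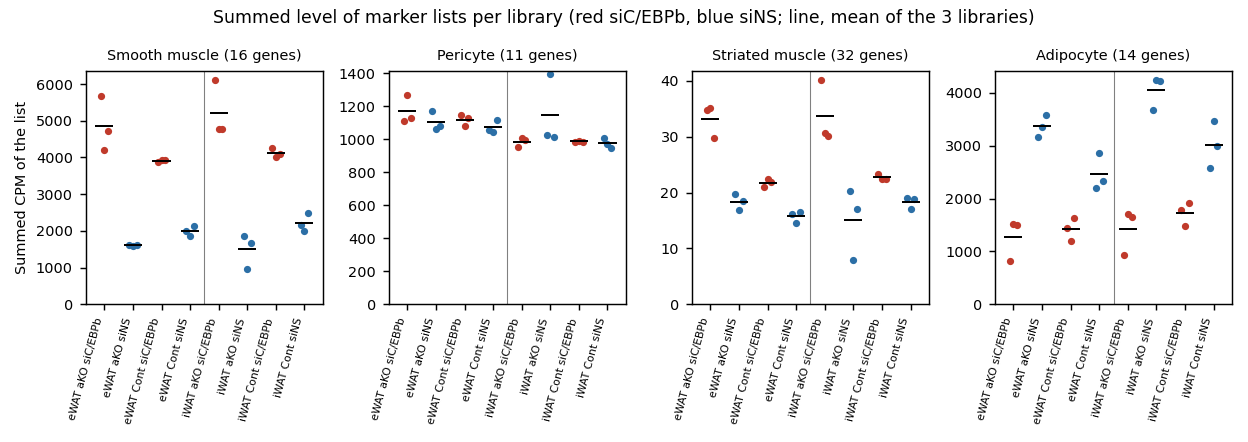
Summed CPM of 4 marker lists in each library (points) and the mean of each group (line), eWAT left and iWAT right of the grey line. The smooth muscle sum is higher and the adipocyte sum lower with siC/EBPb (red) than with siNS (blue) in each depot and genotype. Acta2 and Tagln hold most of the counts of the smooth muscle list. The pericyte sum lies between 947 and 1392 CPM throughout, and the striated muscle sum is at most 40.2 CPM. The pericyte value of 1392 CPM is the shallow iWAT aKO siNS replicate 2.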

How the data were processed

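The deposited files hold raw counts: whole-number counts of reads per gene, made by the authors and tabulated for the 24 libraries. Per the submitters' processing notes, CASAVA, cutadapt 2.7, TopHat2 2.1.1, HTSeq and edgeR were used with GRCm38; their settings, the strand setting of counting included, are not given in the sources used here. The labels' protocols name a strand-specific poly(A) kit. The authors' scaled per-sample files were not used. Symbols and exon lengths were taken from GENCODE M21, which named 53360 genes and left 105 unnamed. The 5 lines of the counter that name no gene were left out; they took 95.9% of the reads of replicate 2 of iWAT aKO siNS, and 27.5% to 39.5% of those of the other 23.

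Genes were kept by filterByExpr (minimum count 10 on the 8 groups), leaving 14785. Counts were scaled by TMM, and a model with 1 mean per group over all 24 libraries was fitted with the quasi-likelihood test of edgeR 4.0.16 in R 4.3.3 (estimateDisp, robust glmQLFit). P-values were adjusted by Benjamini and Hochberg over all tested genes of a contrast, with a threshold of 0.05. The SE of a log2 fold change was derived from the test, as its absolute value divided by the square root of the F statistic. CPM scales counts to a common total with the TMM-scaled library size, and level per kb divides it by the exon length, so that precision follows the total counts above. The fit was tested on simulated counts. The 33 members, the other lists, the contrasts and the alternatives were chosen with earlier results of these data known. All members may be named, with Senp2 and Cebpb; of other lists, the 4 most abundant tested genes and the 4 with the smallest p in the contrast of siC/EBPb and siNS in eWAT aKO. Other genes (Mrtfa, Mrtfb, markers near 0 counts and genes that overlap a member) were named after their values were seen. Alternatives were DESeq2 size factors, the DESeq2 1.42.0 Wald test, no filter, a stricter filter (CPM of at least 1 in 12 libraries), only the groups of a contrast, a replicate block and each library left out.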

Additional observations from a re-analysis of the deposited data

Results flagged for a closer look

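The test of the difference between genotypes in the effect of siC/EBPb (aKO minus Cont, edgeR QL, log2 scale) singled out 21 values, all positive. In eWAT they were 2.13 for Ankrd1, 1.22 for Actg2, 0.99 for Cnn1, 0.78 for Myh11, 0.66 for Tpm1, 0.65 for Actn1, 0.62 for Hspb7, 0.57 for Myl9, 0.56 for Cald1, 0.49 for Synpo2 and 0.43 for Vcl. In iWAT they were 2.27 for Ankrd1, 1.20 for Actg2, 0.94 for Tagln, 0.91 for Acta2, 0.84 for Myl9, 0.77 for Tpm1, 0.67 for Tpm2, 0.64 for Actn1, 0.58 for Cald1 and 0.57 for Hspb7. Acta2 and Tagln were not called in eWAT, and Cnn1 and Myh11 not in iWAT; the difference between depots was not tested for the interaction. Of these calls, 7 of 11 in eWAT and 7 of 10 in iWAT were lost when some single library was left out.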

How the results depend on the processing

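Of 406 values (29 tested members in 14 contrasts), 160 passed the threshold, and 47 of these lost the call when some single library was left out; 0 reversed. With DESeq2 size factors 402 of 406 values stayed on the same side of the threshold, and with no filter 378 of 406. The stricter filter kept the side for 389 of 392, the DESeq2 Wald test for 386 of 401. Only the groups of a contrast kept it for 340 of 394. Direction was compared only for values called in either fit, and 0 of them reversed. With only the groups of the contrast, eWAT aKO against Cont with siNS gave 18 called members, against 10 in the fit of all libraries. The same contrast in iWAT gave 5, against 13. The iWAT interaction gave 5, against 10, and iWAT against eWAT in Cont siNS gave 2, against 0. The cause was not tested. For the alternative fits and those without a library, the share of all tested genes called is not given. A change in the members can thus not be told from a change over all genes. With each library left out, the members called were 6 to 12 in eWAT and 10 to 14 in iWAT for aKO against Cont with siNS, and 6 to 19 and 5 to 18 with siC/EBPb. For siC/EBPb against siNS they were 23 to 24 in eWAT aKO, 21 to 24 in iWAT aKO, 18 to 22 in eWAT Cont and 20 to 24 in iWAT Cont. For the interaction they were 4 to 15 in eWAT and 4 to 12 in iWAT, and for iWAT against eWAT in Cont siNS 0 to 3. Replicate numbers pair nothing by the labels. Deviations of same-numbered eWAT and iWAT libraries correlated over 8159 genes with a mean r of 0.336 (0.0796 to 0.748, over 0.1 in 10 of 11 pairs), those of different genotype or siRNA with a mean of -0.0647 and -0.0317. Same-numbered libraries of the depots thus tended to deviate together, but 1 pair lay under 0.1 and no label gives a shared source, so the numbers were not taken to pair the samples. A replicate block gave the same verdict for 390 of 406 values and added 16 calls, with 10 and 14 members called in eWAT and iWAT for aKO against Cont with siNS, 15 and 15 with siC/EBPb, 24 and 24 for siC/EBPb against siNS in Cont, 24 and 23 in aKO, and 13 and 14 for the interaction. With the block nested within genotype and siRNA, 0 members were called between depots. Genes at a few CPM (Myocd, Rgs5, Cspg4, Ldb3) are limited by depth.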
